A study of Mus musculus with 6 samples.

Results

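This report concerns 36 genes of the vessel wall in mouse colon mucosa, in 3 roles: blood endothelium (26 genes), lymphatic endothelium (4) and pericytes (6). Members were all probes of the bead array whose annotated symbol was one of these names, which gave 53 of 25697 probes for 35 of the 36 genes, among 18002 gene symbols on the array. Podoplanin (Pdpn), a lymphatic membrane glycoprotein, had no probe under its own symbol and is described separately. Total RNA from colon mucosa was hybridised to 1-colour arrays, 1 array per sample, in 2 groups of 3. The WT group was wild type C57BL/6 mice bought from Taconic, and the KO group was mice on a C57BL/6 background that lack microRNA-21 (miR-21-/-) and were supplied by another laboratory. No treatment was given to either group, and the labels state no age, sex or number of animals per sample. Source and genotype changed together, so the effects of the 2 cannot be told apart in any comparison here.

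Blood endothelial cells line capillaries, arteries and veins, are held together by cadherin and claudin junctions, and are kept alive and quiescent by signals through the VEGF receptors and the Tie receptors. Pericytes wrap the capillary wall within the same basement membrane, are recruited by PDGF-B acting on PDGFRβ, and carry Notch3. Lymphatic endothelium is specified by the transcription factor Prox1, responds to VEGF-C through VEGFR3 (Flt4), and in the gut collects fluid and absorbed fat. MicroRNA-21 is a short regulatory RNA that represses messenger RNAs paired to its seed. The array has no probe for the microRNA, so its loss could not be checked in these samples. The mature strand is shown because it is the molecule the KO mice lack, with the seed (bases 2 to 8) in capitals, from RefSeq at chr11:86584120-86584141 (GRCm38.p6, minus strand).
mmu-miR-21a-5p: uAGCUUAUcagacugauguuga

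Each array detected 50.4 to 54.6 percent of the probes, taking a detection p-value under 0.05, and had a median raw intensity of 97 to 115. The lowest medians were those of replicate 3 in both groups. Normalized values of all probes correlated at r = 0.988 to 0.994 within a group and at 0.974 to 0.983 between groups. Levels below are log2 normalized intensities, differences are KO minus WT on that scale with their standard error, and n is 3 per group throughout. "Rose", "fell", "higher" and "lower" mean an adjusted p under 0.05 in the limma fit across all 13737 tested probes. The number of arrays limits the precision. The labels do not tie each replicate to an animal of its own, and p-values therefore cover only the spread seen between these samples.

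Of the 35 genes, 30 had a main probe (the probe with the highest mean) detected on at least 3 arrays and were tested. In KO 11 of the 30 were higher and 0 lower, where 8.06 percent of all 10376 tested genes were higher and 7.62 percent lower. The set was listed with earlier results of these data known, so its excess over those shares is no independent evidence. By role, 9 of 23 blood endothelial genes and 2 of 6 pericyte genes rose, and the 1 lymphatic gene tested did not pass. The median difference of the 30 genes was 0.42, against 0.03 over all tested genes, and 26 of the 30 differences were above 0, against 53.7 percent of all tested genes. The filter can favour genes that are bright in KO: Tie1 and Notch3 were detected on no WT array. Among the 23 genes detected on all 6 arrays, 10 were higher, where 997 of all 11436 probes kept by that filter were higher. At an unadjusted p under 0.05, 16 of the 30 differed, and so did 3472 of the 10376 genes tested in all. In bulk tissue, more cells of a type and more RNA per cell cannot be told apart. The count of higher genes was 7 without WT replicate 1, WT replicate 3 or KO replicate 1, 6 without KO replicate 2 or KO replicate 3, and 10 without WT replicate 2. It was 5 when replicate 3 of both groups, the 2 dimmest arrays, was left out (an alternative chosen after seeing the data), and 5 when arrays were scaled to a common median. Of all 13737 tested probes, 1034 were higher in the main fit. That number was 409, 1053 and 429 without WT replicates 1, 2 and 3. Without KO replicates 1, 2 and 3 it was 462, 218 and 814. It was 367 without replicate 3 of both groups and 193 with median scaling.

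**Figure D1:**
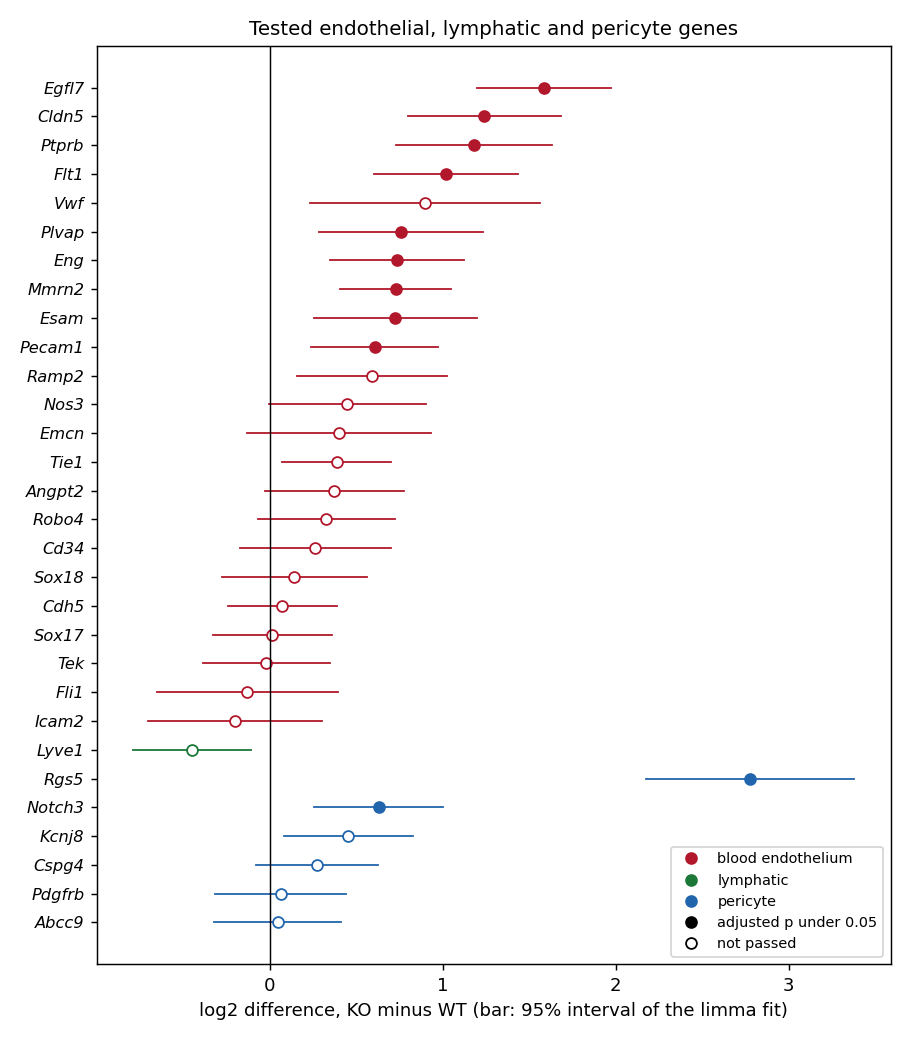
Difference in log2 normalized intensity, KO minus WT, for the 30 tested genes (x axis), grouped and coloured by role, with the 95% interval of the limma fit (bars, n = 3 per group) and filled points for adjusted p under 0.05. Rgs5 lies apart at 2.78, the 9 called endothelial genes lie between 0.61 and 1.59, and Lyve1 has the lowest value, -0.45.

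The pericyte gene Rgs5 had the largest difference of the whole set. Rgs5 encodes a regulator of G protein signalling that shortens responses to vasoconstrictors, and it marks pericytes and arteriolar smooth muscle. In order of replicate number, its level was 6.50, 6.75 and 5.71 in WT and 9.30, 9.25 and 8.74 in KO, an order kept in all such sentences here. All KO arrays lay far above all WT arrays, and the raw intensities showed the same separation, with 180.6, 217.8 and 111.8 in WT and 776.1, 752.3 and 390.8 in KO. The difference was 2.78 ± 0.27 (SE), or 6.86-fold (adjusted p = 0.000746), rank 9 of 10376 tested genes by increase. The call held in all 16 alternatives run, with adjusted p from 8.62e-05 to 0.0109. RefSeq places Rgs5 on chr1. Of the 36 genes, 5 lie on chr11, as the microRNA-21 gene does: Ramp3, Flt4, Ramp2, Icam2 and Pecam1. Pecam1 was called, Ramp2 and Icam2 did not pass, and Ramp3 and Flt4 were not tested. On that chromosome Pecam1 starts at base 106654213 and the mature microRNA at 86584120.

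The other pericyte genes did not follow Rgs5 in size. Notch3, the receptor that maintains mural cells, read 4.56, 4.48 and 4.19 in WT and 4.85, 5.27 and 4.99 in KO. All 3 KO arrays detected it and 0 of the WT arrays did, so its increase is a bound, at least 1.35-fold (adjusted p = 0.0351). The bound sets each WT array at its dimmest detected probe and takes no account of the spread between arrays. The interval of the log2 difference ran from 0.26 to 1.00. Leaving out any single array ended that call, with adjusted p of 0.0622, 0.0504 and 0.101 without WT replicates 1, 2 and 3 and 0.0551, 0.143 and 0.0585 without KO replicates 1, 2 and 3. Kcnj8, the pore subunit of the vascular ATP-sensitive potassium channel, read 5.38, 5.86 and 5.72 in WT and 6.25, 6.10 and 5.97 in KO, groups that did not overlap, with a difference of 0.45 ± 0.17 that did not pass (adjusted p = 0.0945). Its partner Abcc9, the sulfonylurea receptor of that channel, read 6.53, 6.86 and 6.32 in WT and 6.57, 6.65 and 6.63 in KO. The KO arrays of Abcc9 lay within the WT range, and the interval of its difference ran from -0.32 to 0.41. Pdgfrb, the PDGF-B receptor that defines pericytes and fibroblasts, had a difference of 0.06 ± 0.17 with an interval from -0.32 to 0.44. Cspg4, the NG2 proteoglycan of pericytes, had 0.27 ± 0.16 (interval -0.08 to 0.62, detected on 2 of 3 WT arrays). The upper ends of these intervals all lie below the lower end for Rgs5, 2.18, though Cspg4 read close to background (4.58 to 5.11 over all arrays). Whether Rgs5 differed from the other pericyte genes was not tested.

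Among junction and surface proteins of blood endothelium, 4 rose. Claudin 5 (Cldn5), the tight junction claudin of endothelium, read 6.09, 6.17 and 6.01 in WT and 6.92, 7.37 and 7.70 in KO. The WT arrays lay close together while the KO arrays spread more widely (SD 0.08 and 0.39), and the difference was 1.24 ± 0.20 (adjusted p = 0.00734). Ptprb, the phosphatase VE-PTP that restrains Tie2 signalling, read 6.13, 6.36 and 5.76 in WT and 7.35, 6.95 and 7.49 in KO. Its difference was 1.18 ± 0.20, or 2.26-fold (adjusted p = 0.00945), and the groups did not overlap. Esam, an adhesion molecule of endothelial tight junctions, read 6.81, 7.32 and 7.16 in WT and 7.84, 7.46 and 8.18 in KO, so that KO replicate 2 lay close to WT replicate 2. It rose by 0.73 ± 0.21 (adjusted p = 0.0469), a call lost without WT replicate 1 (0.139), WT replicate 3 (0.0979), KO replicate 1 (0.111), KO replicate 2 (0.0553) or KO replicate 3 (0.109). Pecam1 (CD31), a junction protein also carried by platelets and leukocytes, read 6.23, 5.84 and 5.78 in WT and 6.45, 6.51 and 6.70 in KO, a rise of 0.61 ± 0.16 (adjusted p = 0.0371). That call was kept without WT replicate 1 and lost without WT replicate 2 (0.0780), WT replicate 3 (0.105) or KO replicate 1, 2 or 3 (0.0735, 0.1096 and 0.0849). Its other probe did not pass (0.20 ± 0.17, adjusted p = 0.449), and that probe's groups overlapped.

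Other surface genes of the same cells did not pass. The sialomucin endomucin (Emcn), a marker of veins and capillaries, read 7.43, 7.86 and 7.02 in WT and 7.76, 7.56 and 8.19 in KO, overlapping groups with a difference of 0.40 ± 0.24 (interval -0.13 to 0.93). Cd34, a sialomucin of capillaries that fibroblasts also carry, had 0.26 ± 0.19 (interval -0.17 to 0.70). VE-cadherin (Cdh5), the adherens junction protein that defines endothelium, was near background, detected by 1 WT array and all 3 KO arrays, with a difference of 0.07 ± 0.14 (interval -0.24 to 0.39). Icam2, an adhesion molecule of endothelium and leukocytes, had -0.20 ± 0.22 (interval -0.70 to 0.30). The interval of Emcn reaches above the estimates for Esam and Pecam1, while the upper end for Icam2 lies below them. Cdh5 is not set against them, because it was near background and only 1 WT array detected it.

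**Figure D2:**
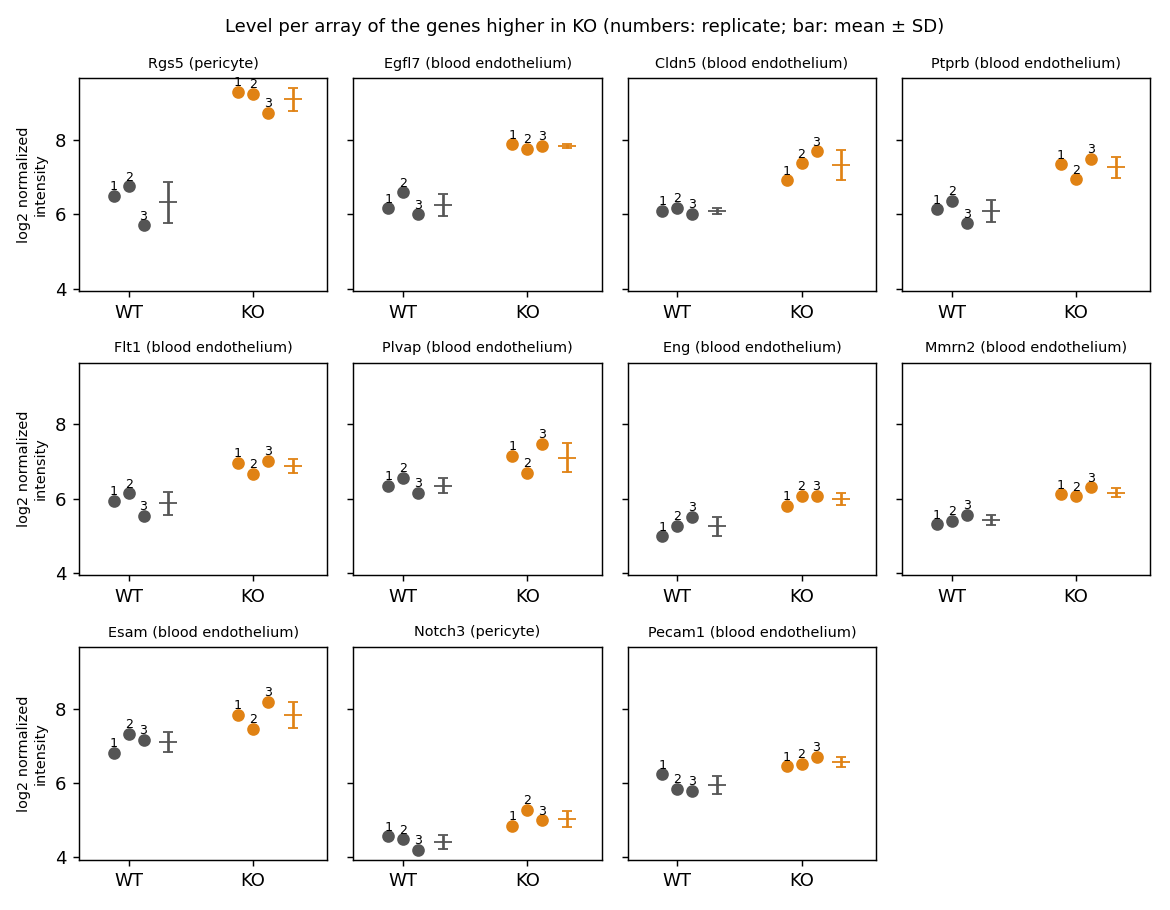
Log2 normalized intensity (y axis) on each WT (grey) and KO (orange) array for the 11 genes higher in KO, with replicate numbers beside the points and mean ± SD bars (n = 3 per group). In all 11 panels the lowest KO array lies above the highest WT array, by the widest margin for Rgs5 (8.74 against 6.75) and by narrow ones for Plvap (6.69 against 6.56) and Esam (7.46 against 7.32). The 11 genes were picked by adjusted p, which favours such separation. Over all tested genes, 20.2 percent separated with KO higher.

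Of the receptors, 2 rose. Flt1 (VEGFR1), a high-affinity VEGF receptor that also acts as a trap for the ligand, read 5.94, 6.14 and 5.54 in WT and 6.97, 6.67 and 7.02 in KO. Its difference was 1.02 ± 0.18, or 2.02-fold (adjusted p = 0.0114), and the call was lost when the 2 dimmest arrays were left out (adjusted p = 0.0534). Another Flt1 probe, ILMN_2732721, was detected on 0 WT and 0 KO arrays and was not tested. Endoglin (Eng), the co-receptor for BMP9 and TGF beta in endothelium, read 4.98, 5.26 and 5.51 in WT and 5.80, 6.08 and 6.07 in KO, a rise of 0.74 ± 0.17 (adjusted p = 0.0247) that did not pass without WT replicate 1 (0.0757), KO replicate 2 (0.0982) or KO replicate 3 (0.0554). Both genes had non-overlapping groups, as did 20.2 percent of all tested genes with KO higher.

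The Tie receptors did not pass. Tek (Tie2), the angiopoietin receptor, read 6.64, 7.01 and 6.78 in WT and 6.82, 6.57 and 6.98 in KO. The groups of Tek lay on top of each other, with an interval from -0.39 to 0.35. Its partner Tie1 was detected by all 3 KO arrays and by 0 of the WT arrays (4.36, 4.37 and 4.33 against 4.88, 4.78 and 4.56). With each WT array set at its dimmest detected probe, the estimated level of Tie1 in KO was 1.09 times that in WT. The difference of Tie1 did not pass the threshold (adjusted p = 0.0907). Angpt2, the ligand that endothelium releases to antagonise Tie2, read 6.78, 7.25 and 6.87 in WT and 7.57, 7.12 and 7.33 in KO, with a difference of 0.37 ± 0.18 (interval -0.03 to 0.77). Robo4, a guidance receptor that stabilises the vessel wall, had 0.33 ± 0.18 (interval -0.07 to 0.72). Ramp2, the chaperone that makes the calcitonin receptor-like receptor a receptor for adrenomedullin, read 7.19, 7.50 and 7.59 in WT and 7.94, 7.74 and 8.38 in KO. Its groups did not overlap, and the difference of 0.59 ± 0.19 did not pass (adjusted p = 0.0692).

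Secreted and caveolar products gave the largest endothelial increase. Egfl7, a matrix-bound factor secreted by endothelium whose gene also hosts microRNA-126, read 6.16, 6.59 and 6.00 in WT and 7.89, 7.77 and 7.85 in KO. The 3 KO arrays were nearly equal (SD 0.06) and all lay more than 1 unit above the highest WT array. The difference was 1.59 ± 0.17, or 3.01-fold (adjusted p = 0.00136), and the call held in all 16 alternatives. Egfl7 was measured by 3 probes, each drawn from a different RefSeq transcript. A second probe, ILMN_1215919, read 4.42, 4.96 and 4.90 in WT and 5.77, 5.65 and 5.55 in KO and rose by 0.90 ± 0.17 (adjusted p = 0.0134, detected on 2 of 3 WT arrays). The third, ILMN_2631417, read 5.11, 4.67 and 4.58 in WT and 4.42, 4.51 and 4.90 in KO, close to background, and did not pass (-0.17 ± 0.19, adjusted p = 0.570). Thus 2 of the 3 Egfl7 probes moved together and the other did not; which exons they cover was not analysed here.

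Mmrn2, an endothelial matrix protein that binds VEGF, read 5.31, 5.40 and 5.57 in WT and 6.11, 6.06 and 6.30 in KO. Spread within each group was small, and it rose by 0.73 ± 0.14 (adjusted p = 0.0142, and 0.0531 without KO replicate 2). Plvap, which forms the diaphragms of fenestrated capillaries such as those beneath the gut epithelium, read 6.34, 6.56 and 6.15 in WT and 7.16, 6.69 and 7.48 in KO. It rose by 0.76 ± 0.21 (adjusted p = 0.0416), with KO replicate 2 only just above WT replicate 2. The call of Plvap was lost without WT replicate 1 (0.1004), WT replicate 3 (0.1216), KO replicate 1 (0.108) or KO replicate 3 (0.0937). Von Willebrand factor (Vwf), the clotting glycoprotein stored by endothelium and platelets, read 5.71, 6.19 and 5.03 in WT and 6.10, 6.62 and 6.91 in KO. The groups of Vwf overlapped, and its difference of 0.90 ± 0.30, although above those of Mmrn2 and Plvap, did not pass (adjusted p = 0.0709, and 0.0273 without WT replicate 2).

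Endothelial nitric oxide synthase (Nos3), which makes the vasodilator nitric oxide, had 3 tested probes, all dim. The main probe read 4.66, 4.42 and 4.53 in WT and 4.59, 4.97 and 5.39 in KO and did not pass (0.45 ± 0.20, adjusted p = 0.157), nor did ILMN_2713835 (0.39 ± 0.18, adjusted p = 0.171). Probe ILMN_2788593 was above background in all 3 KO samples and in 0 of the WT samples, and it rose (adjusted p = 0.0168). The bound used for Notch3 gave 1.40-fold, and the interval of the log2 difference ran from 0.40 to 1.11. All 3 differences of Nos3 were above 0 while only 1 passed. Abcc9 likewise had 2 tested probes, at 0.05 and 0.17, neither past the threshold. Counted by probe instead of by gene, 13 of the 36 tested probes of the set were higher and 0 lower, where 7.53 percent of all tested probes were higher and 7.55 percent lower (15.1 percent in either direction, and 15.7 percent of all genes). The 13 include the Notch3 probe and ILMN_2788593 of Nos3, which 0 WT arrays detected and which passed the filter through their KO arrays.

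**Figure D3:**
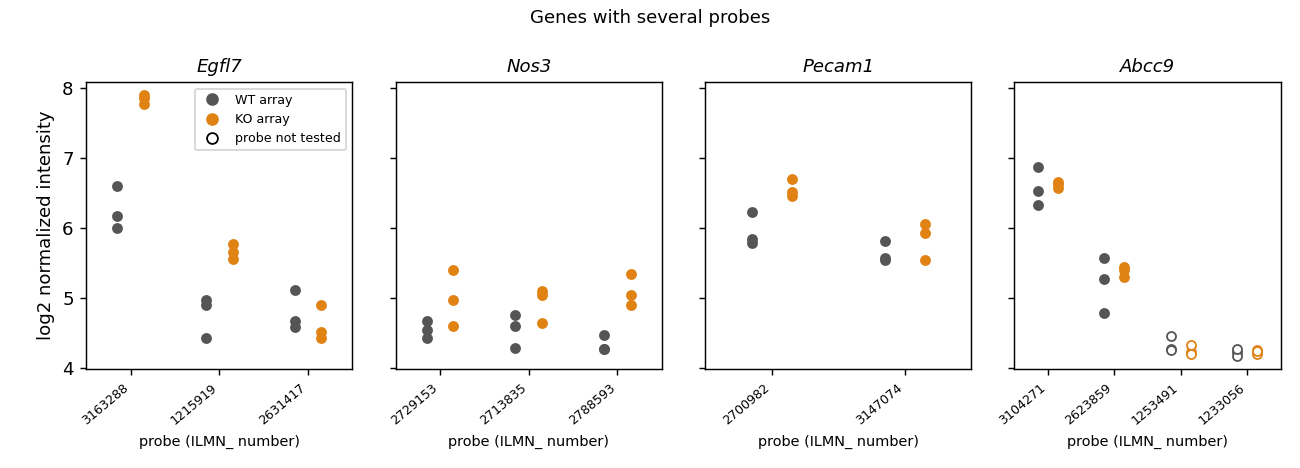
Log2 normalized intensity (y axis) on WT (grey) and KO (orange) arrays for each probe (x axis) of 4 genes with several probes, with open points for probes left untested because fewer than 3 arrays detected them. The groups separate on 2 of 3 Egfl7 probes, 1 of 3 Nos3 probes and 1 of 2 Pecam1 probes, and overlap on all Abcc9 probes.

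Transcription factors of endothelium showed no passing change. Sox18 and Sox17, which drive lymphatic and arterial fate, had differences of 0.14 ± 0.19 (interval -0.28 to 0.56) and 0.01 ± 0.15 (interval -0.33 to 0.36). Fli1, an ETS factor of endothelium that leukocytes and megakaryocytes also express, read 5.34, 4.47 and 4.61 in WT and 4.69, 4.45 and 4.89 in KO (-0.13 ± 0.23, interval -0.65 to 0.39). WT replicate 1, the highest array for Fli1, was also the highest for the leukocyte list described below, and a link between them was not tested. Sox17 and Fli1 were each detected by 1 WT and 2 KO arrays.

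The 5 genes left untested were Kdr (VEGFR2, the main signalling receptor for VEGF), Erg (the ETS factor that maintains endothelial identity), Ramp3 (a second adrenomedullin receptor chaperone), Flt4 and Prox1. Their main probes read 4.20 to 4.72 over all arrays, where the dimmest detected probes read 4.52 to 4.65. Kdr, Erg, Ramp3 and Flt4 were detected on 0 of 6 arrays, and nothing can be said of their change. Defining endothelial genes were thus measured unevenly in this mucosa: Pecam1, Tek and Emcn were detected on all 6 arrays, Cdh5 on part of them, and Kdr and Erg on none.

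The lymphatic role had 1 tested gene, and it did not rise. Lyve1, the hyaluronan receptor of lymphatic capillaries that some tissue macrophages also carry, read 8.77, 8.89 and 8.83 in WT and 8.47, 8.13 and 8.53 in KO. All KO arrays lay below all WT arrays, opposite to the called endothelial genes. Such separation, in either direction, was seen for 37.5 percent of all tested genes. The Lyve1 difference of -0.45 ± 0.15 (interval -0.79 to -0.11) did not pass (adjusted p = 0.0739). It passed as lower with an offset of 50 (adjusted p = 0.0461) and with array weights (adjusted p = 0.0193). Prox1 was above background in 2 KO samples and 0 WT samples (4.38, 4.31 and 4.42 in WT, 4.59, 4.41 and 4.72 in KO), and Flt4 was not above background, at 4.39, 4.22 and 4.43 in WT and 4.39, 4.31 and 4.37 in KO. A probe annotated under the older symbol Gp38 matched Pdpn by RefSeq accession. It read 9.77, 9.77 and 9.79 in WT and 9.89, 9.78 and 10.09 in KO, with overlapping groups and a difference of 0.14 ± 0.14 (interval -0.17 to 0.46). Fibroblasts of gut lymphoid tissue also make podoplanin. The lymphatic role thus rests on 1 tested gene of 4, and a difference between lymphatic and blood endothelium as compartments was not tested.

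RefSeq promoter windows (GRCm38.p6, 250 bases before each annotated start) were given for 20 of the 36 genes, in 25 windows. They were searched on both strands for CAGGAAG and CCGGAAG, cores bound by ETS factors such as Erg and Fli1, for AACAAT, bound by SOX factors, and for GTGGGAA, bound by the Notch effector RBPJ. CAGGAAG was found for 5 of the 20 genes (Cd34, Egfl7, Emcn, Erg and Robo4), where 12.1 percent of 27025 genes with a window hold it. Of the 6 called genes with a window (Cldn5, Egfl7, Eng, Flt1, Notch3 and Rgs5), 1 held any of the 4 motifs. CCGGAAG was found for Ramp3 (7.83 percent of all genes), AACAAT for Emcn, Erg and Tek (10.9 percent), and GTGGGAA for Kdr and Tie1 (6.18 percent). Genes with several starts have more windows and so more chances of a match. Some windows, such as those of Flt1 and Kdr, lie inside the RefSeq bounds of the gene rather than before its outermost start. The sequences of the genes with the largest changes are shown with CAGGAAG (or CTTCCTG, the same letters on the other strand) in capitals. Egfl7 has 3 windows: the first holds it at 90 and 49 bases before the start, the second at 81, and the third (chr2:26586386-26586635, not shown) holds none. The windows of Rgs5, Cldn5 and Flt1 hold none of the 4, which says only that these letters are not there.
Egfl7 chr2:26580833-26581082 (plus strand): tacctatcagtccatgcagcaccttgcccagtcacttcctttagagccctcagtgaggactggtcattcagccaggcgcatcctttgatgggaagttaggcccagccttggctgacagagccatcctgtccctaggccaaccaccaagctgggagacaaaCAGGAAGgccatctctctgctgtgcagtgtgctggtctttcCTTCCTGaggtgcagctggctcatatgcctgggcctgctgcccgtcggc
Egfl7 chr2:26583615-26583864 (plus strand): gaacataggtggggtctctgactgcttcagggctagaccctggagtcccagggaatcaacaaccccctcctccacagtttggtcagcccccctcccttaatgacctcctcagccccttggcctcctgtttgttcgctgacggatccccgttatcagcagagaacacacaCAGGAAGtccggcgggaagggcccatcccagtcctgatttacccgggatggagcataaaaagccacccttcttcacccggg
Rgs5 chr1:169655251-169655500 (plus strand): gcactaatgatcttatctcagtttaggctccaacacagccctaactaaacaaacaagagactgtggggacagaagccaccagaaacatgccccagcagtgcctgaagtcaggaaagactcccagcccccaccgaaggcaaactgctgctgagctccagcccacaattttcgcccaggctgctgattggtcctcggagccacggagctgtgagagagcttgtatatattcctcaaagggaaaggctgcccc
Cldn5 chr16:18776597-18776846 (plus strand): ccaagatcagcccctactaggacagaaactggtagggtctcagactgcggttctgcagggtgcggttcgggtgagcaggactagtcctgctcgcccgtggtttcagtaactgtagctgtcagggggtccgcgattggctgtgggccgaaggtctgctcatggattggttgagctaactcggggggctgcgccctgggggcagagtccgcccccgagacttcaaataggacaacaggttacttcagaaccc
Flt1 chr5:147726012-147726261 (minus strand): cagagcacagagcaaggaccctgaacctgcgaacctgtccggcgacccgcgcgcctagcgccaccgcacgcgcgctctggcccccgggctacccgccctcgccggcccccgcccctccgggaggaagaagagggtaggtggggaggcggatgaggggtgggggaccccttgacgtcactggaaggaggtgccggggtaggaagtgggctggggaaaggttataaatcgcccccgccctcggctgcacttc

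A list of 87 other vascular genes (ligands, receptors, regulators, wall and matrix genes) was read from the same fit. Of these 61 were tested, and 9 were higher and 4 lower in KO, or 14.8 and 6.56 percent, against the 8.06 and 7.62 percent of all tested genes given above. The median difference was 0.20. This list, too, was chosen with earlier results of these data known. The counts were 3 higher and 1 lower with median scaling, 16 higher and 4 lower without WT replicate 2, 4 higher and 0 lower without KO replicate 2, 6 higher and 1 lower without WT replicate 3, 7 and 2 without WT replicate 1, and 8 and 2 without KO replicate 3.

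Among ligands and receptors, Nrp1, the co-receptor of VEGF and semaphorins, read 7.88, 8.03 and 7.73 in WT and 9.02, 9.04 and 9.04 in KO. The KO arrays were almost equal, the difference was 1.15 ± 0.14 (adjusted p = 0.00222), and a second probe rose by 1.25 ± 0.18 (adjusted p = 0.00503). Vegfc, the ligand of Flt4 that drives lymphatic growth, read 6.91, 7.25 and 6.87 in WT and 8.04, 7.77 and 7.80 in KO and rose by 0.85 ± 0.16 (adjusted p = 0.0123), while Lyve1 did not rise. Vegfa, the main VEGF ligand, read 8.55, 8.70 and 8.68 in WT and 8.85, 9.03 and 8.66 in KO and did not pass (0.20 ± 0.15, interval -0.13 to 0.54), nor did its other tested probe (-0.12 ± 0.18). Angptl4, a secreted lipase inhibitor made by fat, epithelium and vessels, read 6.62, 6.03 and 5.60 in WT and 6.76, 7.13 and 7.99 in KO and rose by 1.22 ± 0.33 (adjusted p = 0.0393). This call was lost without WT replicate 2 (0.0724), WT replicate 3 (0.122), KO replicate 2 (0.0946) or KO replicate 3 (0.0798). Angpt1, the Tie2 agonist made by mural cells, had 0.17 ± 0.16 and was detected on 1 of 3 WT arrays, and Pdgfb, the endothelial ligand that recruits pericytes, had 0.47 ± 0.19 (adjusted p = 0.114, and 0.0438 without WT replicate 2). The Notch ligand Dll4 of tip cells was detected on 0 of 6 arrays.

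Bmp4, a growth factor of gut mesenchyme, read 7.15, 8.32 and 7.45 in WT and 8.87, 8.69 and 8.44 in KO and rose by 1.03 ± 0.27 (adjusted p = 0.0363). Its call was lost without WT replicate 1 (0.104), WT replicate 3 (0.109) or KO replicate 1, 2 or 3 (0.107, 0.109 and 0.0501). The chemokine Cxcl12, made by stromal and vascular cells, read 6.97, 7.35 and 6.52 in WT and 8.07, 7.84 and 8.20 in KO and rose by 1.09 ± 0.21 on this main probe (adjusted p = 0.0141), and its other 2 tested probes, at 0.63 and 0.64, did not pass. Aqp1, the water channel of capillary endothelium and red cells, read 7.83, 8.38 and 8.27 in WT and 9.14, 9.09 and 9.25 in KO on its main probe. It rose on all 3 of its probes, by 1.00, 1.36 and 1.18 (adjusted p = 0.00945, 0.00221 and 0.00522). Mcam, an adhesion molecule of endothelium and mural cells, read 6.55, 7.52 and 7.23 in WT and 8.12, 8.26 and 7.89 in KO and rose by 0.99 ± 0.24 (adjusted p = 0.0262), with its other 2 probes at 0.48 and 0.69, not past the threshold. The Mcam call was lost without WT replicate 1 (0.0552), WT replicate 3 (0.0599), KO replicate 1 (0.0712) or KO replicate 2 (0.0987). Of the vascular basement membrane, the collagen chain Col4a2 read 8.22, 8.86 and 8.43 in WT and 9.35, 9.89 and 9.44 in KO, and perlecan (Hspg2) read 8.19, 8.57 and 8.27 in WT and 9.38, 9.38 and 8.94 in KO. Col4a2 rose by 1.06 ± 0.21 (adjusted p = 0.0145) and Hspg2 by 0.89 ± 0.18 (adjusted p = 0.0144), both lost without KO replicate 2 (0.0615 and 0.0680). All of these genes had non-overlapping groups on their main probes, as did 20.2 percent of all tested genes with KO higher.

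Of the 4 that fell, Vcam1, the adhesion molecule that endothelium and stroma display to leukocytes, read 9.77, 8.32 and 9.36 in WT and 7.74, 7.68 and 7.69 in KO. WT replicate 2 lay nearest the KO arrays, and the difference was -1.45 ± 0.31 (adjusted p = 0.0186, and 0.0635 without WT replicate 3 or 0.0674 without KO replicate 2). Hhex, a homeobox factor of early endothelium that B cells also express, read 6.99, 6.35 and 6.52 in WT and 5.60, 5.58 and 5.70 in KO and fell by 0.99 ± 0.18 (adjusted p = 0.0114, and 0.0521 without KO replicate 2). Efnb2, the ephrin ligand of arteries, read 6.41, 6.49 and 6.56 in WT and 6.14, 5.81 and 5.89 in KO and fell by 0.54 ± 0.14 (adjusted p = 0.0365). Cd300lg, a mucin-like receptor of capillaries and lymph node venules, read 5.40 to 5.61 over the WT arrays, 4.76 to 5.12 over the KO ones, and fell by 0.54 ± 0.15 (adjusted p = 0.0383). The Efnb2 call was kept without KO replicate 1 and lost without WT replicate 1, 2 or 3 (0.0751, 0.0634 and 0.0948) or KO replicate 2 or 3 (0.151 and 0.0743). The Cd300lg call was kept without WT replicate 2 and lost without WT replicate 1 or 3 (0.0942 and 0.102) or KO replicate 1, 2 or 3 (0.122, 0.0865 and 0.0623).

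**Figure D4:**
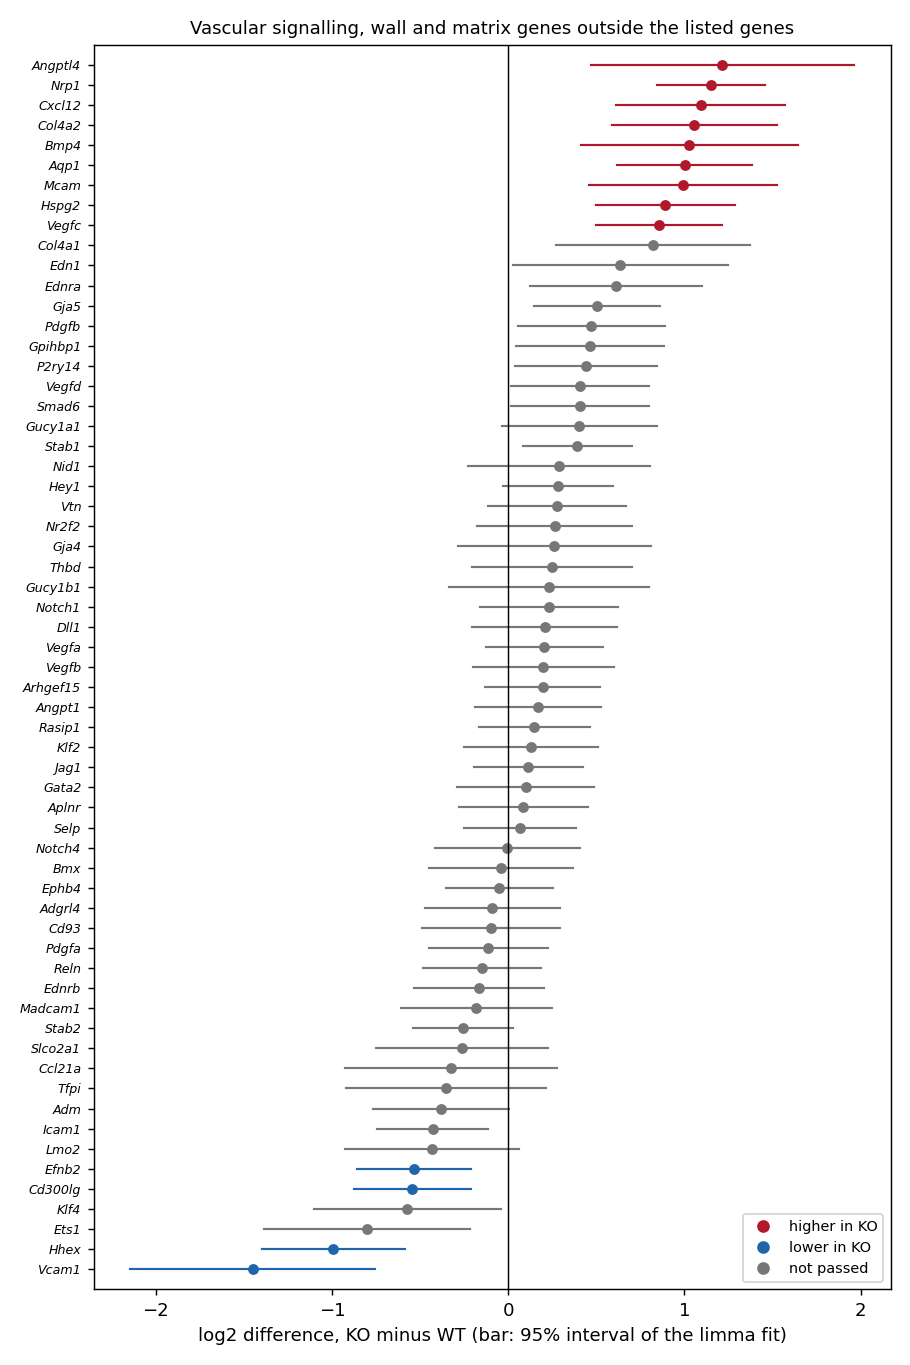
Difference in log2 normalized intensity, KO minus WT (x axis), with the 95% interval of the limma fit (bars, n = 3 per group) for the 61 tested vascular genes outside the set, coloured by call. The 9 higher genes lie between 0.85 and 1.22 and the 4 lower genes between -1.45 and -0.54.

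Markers of other cell types moved between the groups as well. Of fibroblast genes 3 of 10 were higher in KO and 0 lower, with a mean log2 level of 9.06 to 9.62 on the WT arrays and 9.71 to 9.82 on the KO arrays. Their median difference was 0.47. Of smooth muscle genes 1 of 9 was higher, and the ranges overlapped (9.58 to 10.41 in WT, 10.30 to 10.84 in KO). Yet 8 of those 9 genes had a difference above 0, 8 had an unadjusted p under 0.05, and their median difference of 0.74 was above the 0.45 of blood endothelium and the 0.36 of pericyte genes. Of adipocyte genes 6 of 7 tested were higher (5.37 to 7.84 in WT, 8.67 to 10.07 in KO), with a median difference of 2.72 and with Fabp4 detected on 0 of 6 arrays. The part of these cells in the vascular differences was not tested.

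Leukocyte genes went the other way, with 4 of 8 lower and 0 higher (8.54 to 9.80 in WT, 7.90 to 8.38 in KO). Leukocytes also express Pecam1, Icam2 and Fli1, and their part in those genes' values was not tested. Of platelet and red cell genes 1 of 6 was lower and 0 higher (6.51 to 6.82 in WT, 6.08 to 6.54 in KO). Epithelial genes, with 1 higher and 2 lower of 9, had nearly equal means on all arrays (10.97 to 11.04 in WT, 11.03 to 11.11 in KO). Of 6 mesothelial and enteric neural genes 1 was higher, and the ranges overlapped (5.81 to 6.03 in WT, 5.62 to 6.30 in KO). Blood endothelial means were 5.77 to 6.02 in WT and 6.28 to 6.63 in KO, and pericyte means 5.36 to 5.80 and 6.16 to 6.35, so that neither overlapped. Over all tested genes, groups did not overlap for 37.5 percent, and for 20.2 percent with KO higher. In the set it was 14 of 30 with KO higher and 1 of 30, Lyve1, with KO lower.

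**Figure D5:**
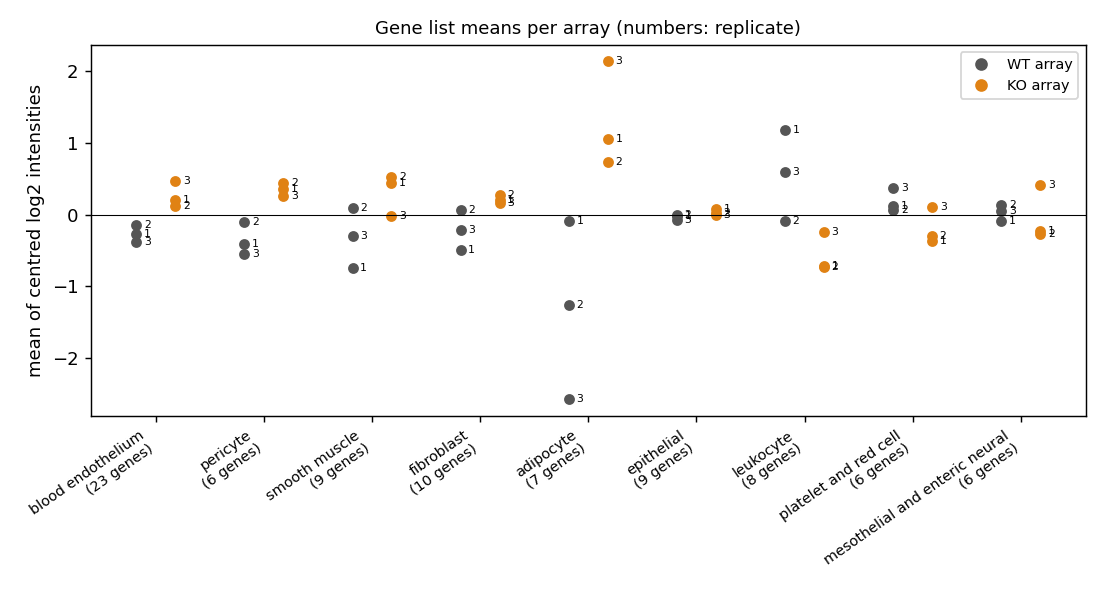
Mean over the genes of each list of log2 normalized intensity centred on the gene's mean over all 6 arrays (y axis), for each WT (grey) and KO (orange) array, with replicate numbers beside the points and the number of tested genes below. KO arrays lie above WT arrays for blood endothelium, pericyte, fibroblast and adipocyte lists, while smooth muscle overlaps (WT replicate 2 at 0.09, KO replicate 3 at -0.02) and the KO arrays lie below the WT arrays for the leukocyte list.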

How the data were processed

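Total RNA from 3 WT and 3 KO colon mucosa samples was measured on bead arrays. Per the file headers, the deposited probe table holds, for each of 25697 probes, the mean intensity of its beads (linear, not normalized between arrays), the p-value of detection, and the beads' standard error and number. A second deposited table holds the authors' log2 values, normalized between arrays, for 18010 probes; limma is named in the submitters' processing notes, without version or role. Those values correlated at r of at least 0.999895 with the ones computed here. For 12 further columns (array number and array SD) no use was made.

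Here neqc of limma 3.58.1, run in R 4.3.3, corrected the background (normexp, negative controls inferred from detection p-values, offset 16), quantile normalized the arrays and took log2. Probes with detection on 3 or more arrays were fitted with lmFit and eBayes, with no covariate, two-sided, and Benjamini-Hochberg adjustment over 13737 probes. A gene was represented by its probe with the highest mean, and fold bounds set undetected groups at the lowest detected value of each array. The fit was tested on simulated data, whose settings and outcome are not given here. Permuting 3 arrays against 3 cannot give p below 0.1. Members were matched on the file's symbol, and other genes on symbols updated through RefSeq (23788 probes by Entrez ID, 685 by accession, 1224 kept). By rule, values on every array are given for members past the threshold and the 3 of each role with the highest means; of the other vascular genes, those past the threshold and 5 fixed names are named. Values on every array of Tek, Tie1, Vwf, Angpt2, Nos3, Fli1 and further probes of Egfl7 were added after values were seen. The members and lists were chosen with earlier results of these data known. Member probes had 15 to 57 beads per array and a median bead standard error of 2.82 percent of intensity. Alternatives covered scaling, offset, filter, probe choice, weights, block, variance trend, the authors' values and each array left out.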

Additional observations from a re-analysis of the deposited data

How the results depend on the processing

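The count of 11 higher vessel wall genes became 5 with median scaling, 6 with no filter on dim probes and 5 without WT replicate 3 and KO replicate 3 together (added after the data were seen), and 6 to 10 with single arrays left out. The count of lower genes was 0 and became 1 (Lyve1) with an offset of 50 and with array weights. All tested probes called numbered 2071, and 536 with median scaling (193 higher and 343 lower, against 1034 and 1037). They numbered 1492 of 25697 with no filter, 3772 with array weights, 839 without the 2 dimmest arrays and 460 to 2116 with single arrays left out. Other vascular genes higher and lower numbered 3 and 1 with median scaling, 16 and 7 with array weights, 3 and 1 without the 2 dimmest arrays, and 4 to 16 and 0 to 4 with single arrays left out. Where arrays were left out fewer samples were tested, and with no filter more probes were; other causes were not tested.

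Of the 11 called genes, Rgs5, Egfl7, Cldn5 and Ptprb kept the call in all 16 alternatives and none of the 11 changed sign. Calls were lost in 1 alternative for Flt1, 2 for Mmrn2 (adjusted p = 0.0531 without KO replicate 2), 6 for Eng, 10 for Pecam1 and Plvap, 11 for Esam and, of 15 run, 10 for Notch3. Without single arrays the highest adjusted p was 0.0982 for Eng (KO replicate 2), 0.1096 for Pecam1 (KO replicate 2), 0.1216 for Plvap (WT replicate 3) and 0.139 for Esam (WT replicate 1). Of 19 genes not called, 5 passed in at least 1 alternative and 7 changed sign in at least 1. With single arrays left out, differences ran from -0.11 to 0.089 for Tek, -0.090 to 0.11 for Sox17, -0.080 to 0.19 for Abcc9, -0.00080 to 0.14 for Cdh5, -0.30 to 0.14 for Fli1 and -0.056 to 0.18 for Pdgfrb. Median scaling gave 0.049 for Tek and -0.023 for Sox17, cyclic loess gave -0.011 for Sox17 and -0.023 for Abcc9, and leaving out the 2 dimmest arrays gave -0.028 for Sox17, -0.087 for Abcc9 and -0.13 for Sox18.

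With the replicate number as a block, 10 of the set were higher (9 of them among the 11) and 0 lower, 2154 probes were called, and 9 other vascular genes were higher and 3 lower. Same-numbered arrays shared deviations at r = 0.01, 0.15 and 0.06. WT replicates 2 and 3 correlated best with the KO arrays of their own number, and WT replicate 1 with KO replicate 3 (r = 0.08). With 3 arrays per group and correlations this small, whether the numbers pair the samples cannot be decided.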
